A study of Mus musculus with 44 samples.

Results

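The 10 genes described here present antigen through the major histocompatibility complex (MHC), and they are 10 of the 50714 genes counted in every library. They were chosen by symbol and matched to Ensembl identifiers with GENCODE M21. The 5 class I genes were H2-K1, H2-D1, B2m, Tap1 and Tap2, and the 5 class II genes were H2-Aa, H2-Ab1, H2-Eb1, Cd74 and Ciita. The tissue for RNA-seq was dorsal cortex with hippocampus, taken on postnatal days 28 to 29. All mice, controls included, were CX3CR1-CreERT2 (+/-) and RPL10a-GFP flox (+/-) per the sample labels, whereas the series design writes fl/fl. Tamoxifen at 100 mg/kg, or vehicle for controls, was given on postnatal days 15, 17 and 19. The series design calls the control mice untreated. CX3CR1-CreERT2 is a Cre recombinase that tamoxifen activates in cells using the Cx3cr1 promoter, which are microglia and also other macrophages and monocytes. The recombined allele tags the ribosomal protein RPL10a with GFP. Translating ribosome affinity purification (TRAP) then pulls down tagged ribosomes with the mRNA on them.

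There were 4 fractions. Input was RNA of the homogenate, and MG_TRAP was the TRAP of that homogenate, which samples whole microglia. SN_input was RNA of synaptosomes, a preparation of detached nerve endings with glial processes attached. PeMP_TRAP was the TRAP of the synaptosome fraction, which samples ribosomes of peripheral microglial processes. In each fraction 3 libraries were control, lettered A to C, and 8 were from tamoxifen mice, lettered D to K, 44 in all. The 24 libraries lettered A to F were deposited as one set (the first) and the 20 lettered G to K as another (the second), whose last fraction is named SN_TRAP. Controls exist in the first set only. The labels do not say whether a replicate is 1 animal, so p-values measure the spread between these libraries.

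MHC class I displays peptides from the cytosol on nearly every cell. A heavy chain (H2-K1, H2-D1) pairs with beta-2 microglobulin (B2m), and the paired transporter subunits Tap1 and Tap2 carry peptides into the endoplasmic reticulum. Class II displays peptides from the endocytic route and is made mainly by professional antigen-presenting cells. Its alpha and beta chains (H2-Aa with H2-Ab1, and H2-Eb1 for the E molecule) travel with the invariant chain Cd74, and Ciita is the co-activator that switches the class II genes on. Microglia of the young, healthy brain are known for little class II, while border macrophages and dendritic cells carry much of it.

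All but B2m, Cd74 and Ciita lie on chromosome 17, in GENCODE M21 on GRCm38. H2-K1 (ENSMUSG00000061232) is at chr17:33996017-34000347 on the minus strand and H2-D1 (ENSMUSG00000073411) at chr17:35262730-35267499 on the plus strand. Tap1 (ENSMUSG00000037321) is at chr17:34187553-34197225 and Tap2 (ENSMUSG00000024339) at chr17:34203527-34216321, both on the plus strand. The class II chains lie next to them. H2-Ab1 (ENSMUSG00000073421) is at chr17:34257689-34269419 on the plus strand, H2-Aa (ENSMUSG00000036594) at chr17:34282744-34287823 on the minus strand and H2-Eb1 (ENSMUSG00000060586) at chr17:34305867-34316674 on the plus strand. B2m (ENSMUSG00000060802) is at chr2:122147686-122153083, Cd74 (ENSMUSG00000024610) at chr18:60803848-60812652 and Ciita (ENSMUSG00000022504) at chr16:10480059-10528418, all on the plus strand.

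Some reads of these genes could not be told apart from those of a neighbour or a paralog. Of all 50-base windows of the transcripts, 8.79% of H2-K1 and 14.3% of H2-D1 also occur in another gene, chiefly in H2-D1 for H2-K1 and in H2-Q genes for H2-D1. Exons of Tap1 overlap 212 bases of Psmb9 on the other strand, and exons of Tap2 overlap 698 bases of 2 antisense genes. Ciita shares 329 bases with Dexi on the other strand. The strand setting of the counting is not given in the sources used here. B2m, H2-Aa, H2-Ab1, H2-Eb1 and Cd74 shared no such window.

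Promoters of both classes carry a common arrangement, the SXY module, in which an X2 box with a TGACG core precedes a Y box with an ATTGG core. The module is where factors shared by class I and class II genes bind. RefSeq promoter windows (GRCm38.p6, 250 bases before to 50 after the start) were at hand for 6 of the 10 genes. The stretches below, 60 bases each, show the 2 cores in capitals where they were found, and are printed because they are the sequence feature that crosses the class boundary.
H2-K1: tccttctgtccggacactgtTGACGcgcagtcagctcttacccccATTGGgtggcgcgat
H2-D1: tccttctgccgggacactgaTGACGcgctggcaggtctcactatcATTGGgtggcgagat
B2m: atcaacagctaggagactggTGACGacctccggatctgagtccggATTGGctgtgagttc
H2-Aa: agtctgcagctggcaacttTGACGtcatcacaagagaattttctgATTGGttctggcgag
H2-Eb1: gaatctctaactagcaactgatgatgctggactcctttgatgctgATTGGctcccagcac
They come from chr17:34000349-34000408 (minus strand) for H2-K1, chr17:35262973-35263032 for H2-D1, chr2:122147589-122147648 for B2m, chr17:34287857-34287916 (minus strand) for H2-Aa and chr17:34305763-34305822 for H2-Eb1. TGACG and ATTGG were 20 bases apart in H2-K1, H2-D1 and B2m, and 21 bases apart in H2-Aa. Single cores were searched on both strands of the window. For these genes the pair was searched only on the gene's strand in the 250 bases before the start. H2-Eb1 had ATTGG without TGACG, and Tap1 had both cores but no such pair there. Among 32851 promoter windows, searched in full and on both strands, 20.8% held TGACG, 37.4% held ATTGG and 0.913% held TGACG followed by ATTGG within 30 bases. These matches describe the letters only.

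Assigned reads ranged from 746616 to 35584637 per library. A count of 0 still allows up to 3 counts, which equals 0.0847 to 4.05 CPM (the count scaled to the library's total) depending on the library. That floor covers counting error only, since amplified reads that carry no molecular identifier can stem from the same molecule. PeMP_TRAP libraries of the second set stood apart. They had 5372 to 7369 genes with reads, against 11694 to 13096 in tamoxifen PeMP_TRAP of the first set, and 56.7% to 68.6% of the tested genes were at 0 in each. The 10 microglial markers all had reads in tamoxifen TRAP. Their summed level was 8011 to 24728 CPM in tamoxifen MG_TRAP, 3735 to 16732 CPM in tamoxifen PeMP_TRAP and 98.9 to 288 CPM in tamoxifen Input.

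Compared per kilobase of exon (RPKM), the summed class I level stood above the summed class II level in every tamoxifen library. In MG_TRAP the median RPKM was 2594 for B2m, 332 for H2-D1, 58.8 for H2-K1 and 52.6 for Cd74. Next came Tap2 at 8.0, H2-Ab1 at 4.89, H2-Eb1 at 3.33, H2-Aa at 2.38, Tap1 at 1.19 and Ciita at 0. From H2-K1 downward, neighbours in this order overlapped in range. The lowest B2m value, 1472, was above the highest H2-D1 value, 625, and the lowest H2-D1 value, 141, was above the highest H2-K1 value, 117. In PeMP_TRAP the order at the top was the same, with medians of 1291 for B2m, 253 for H2-D1, 95.8 for H2-K1 and 50.2 for Cd74, but there each gene overlapped its neighbour, B2m starting at 755 and H2-D1 reaching 952. The class II share of the summed level of both classes split by set, without overlap in any of the 4 fractions. Its first-set median was 1.03% in Input, 0.525% in MG_TRAP, 0.458% in SN_input and 0.826% in PeMP_TRAP. In the second set the medians were 3.97%, 2.78%, 3.07% and 8.17%, so PeMP_TRAP had the highest median in the second set and Input in the first. In PeMP_TRAP the share ran from 0.558% to 1.55% in the first set and from 4.27% to 16.8% in the second, and these set differences were not tested.

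**Figure D1:**
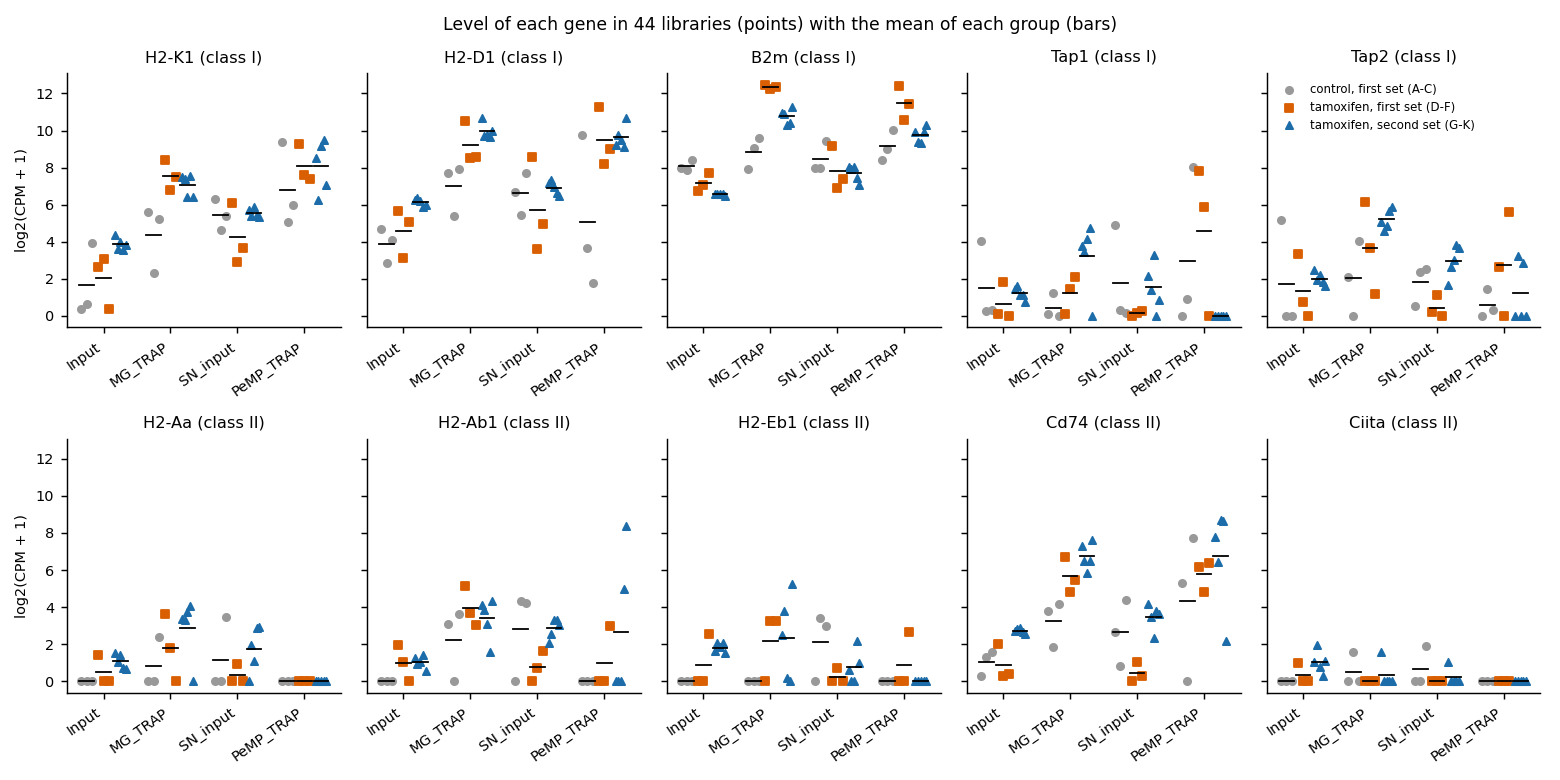
Level of each of the 10 genes as log2(CPM + 1) in 44 libraries, by fraction; points are libraries (grey circles control, orange squares tamoxifen of the first set, blue triangles tamoxifen of the second set) and bars are means of the plotted log values. H2-K1, H2-D1, B2m and Cd74 rose from Input to MG_TRAP in tamoxifen mice, while H2-Aa and Ciita were at 0 reads in all 8 tamoxifen PeMP_TRAP libraries.

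Whole-microglia TRAP was compared with homogenate RNA of tamoxifen mice to ask which transcripts tagged ribosomes carry in excess. H2-K1 measured 0.305, 11.1 and 19.3 CPM in Input (lowest, median and highest of 8) and 83.0, 173 and 344 CPM in MG_TRAP. H2-D1 measured 7.63, 59.6 and 80.6 CPM in Input and 365, 857 and 1612 CPM in MG_TRAP. B2m measured 87.2, 94.7 and 211 CPM in Input and 1266, 2231 and 5663 CPM in MG_TRAP. Every MG_TRAP library lay above every Input library for these 3 genes, as for 4.37% of all genes tested. Cd74 did the same, with 0.218, 5.02 and 6.28 CPM in Input and 27.0, 88.3 and 194 CPM in MG_TRAP.

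By edgeR's quasi-likelihood test with Benjamini-Hochberg adjustment over all genes, with the set as a covariate, these 4 of the 10 genes were called higher at an adjusted p below 0.05. Across all 15710 genes tested, 6.82% were called in either direction, 4.67% higher and 2.15% lower. The log2 fold change was 4.34 for H2-K1 (SE 0.65, adjusted p = 5.9e-06), 4.35 for H2-D1 (SE 0.58, adjusted p = 5.22e-07), 4.85 for B2m (SE 0.39, adjusted p = 2.01e-12) and 5.27 for Cd74 (SE 0.88, adjusted p = 4.45e-05). In the first set alone the log2 fold change of Cd74 was 6.15, with an edgeR adjusted p of 0.0512. The 3 class I calls held in all 16 alternatives run. The median log2 fold change was 4.34 for the class I genes and 3.33 for the class II genes, against -0.14 for all genes tested. Of 10 microglial markers 10 were called higher, at a median log2 fold change of 6.37. Called lower were 3 of 8 neuronal, 2 of 8 oligodendrocyte and 1 of 8 astrocyte markers. The part of these markers in the MHC values was not tested. These are bulk libraries, in which fewer cells of a type and less RNA per cell cannot be told apart.

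The transporter genes and the class II chains were lower and more scattered. The labels do not say that a replicate letter pairs libraries, so counts of replicates set libraries of the same letter side by side as a description and enter no test. Tap2 was higher in MG_TRAP than in Input in 8 of 8 replicates, with medians of 30.3 and 2.7 CPM, yet the ranges overlapped and the edgeR adjusted p was 0.0995 (DESeq2 adjusted p = 0.0336). Tap1 had medians of 6.5 and 1.19 CPM and an edgeR adjusted p of 0.428. H2-Ab1, the beta chain of the A molecule, ran from 1.99 to 34.2 CPM in MG_TRAP and from 0 to 2.89 CPM in Input, again higher in 8 of 8 replicates, with an edgeR adjusted p of 0.112. Its alpha partner H2-Aa reached 15.5 CPM and was at 0 in MG_TRAP replicates F and K (edgeR adjusted p = 0.155). H2-Eb1 reached 37.0 CPM in replicate K and was at 0 in D and J (edgeR adjusted p = 0.538). When only MG_TRAP and Input were fitted, 7 of the 10 genes were called, Tap2, H2-Aa and H2-Ab1 being added, and 23.3% of the genes tested were called in that fit. Ciita went the other way in values. It had reads in 6 of 8 Input libraries, up to 57 counts in replicate H, and in 1 of 8 MG_TRAP libraries, with 27 counts in G (edgeR adjusted p = 0.54).

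Markers of some other antigen-presenting cells were also higher in MG_TRAP. The counts of called markers here stand beside 4.67% of all genes called higher and 2.15% lower. Of 10 border macrophage markers 4 were called higher and 0 lower. The border macrophage markers summed to 190 to 290 CPM in tamoxifen MG_TRAP against 2.43 to 21.7 CPM in Input, and 10 of 10 had reads in MG_TRAP. The dendritic cell markers summed to 51.3 to 119 CPM against 36.4 to 67.5 CPM, with 8 of 10 having reads, Clec9a and Ccr7 at 0, and 0 of the 6 tested called by edgeR. Of 7 B and plasma cell markers tested (Cd79a, Cd79b, Mzb1, Bank1, Jchain, Igkc and Ighm), 5 were called higher and 0 lower. Their part in the class II values was not tested. Monocyte markers reached 47.5 CPM in tamoxifen MG_TRAP with 3 of 8 at 0, and of the 3 tested 0 were called higher and 1 lower. T and NK cell markers summed to at most 0.478 CPM.

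Process TRAP was compared with synaptosome RNA to ask the same of the peripheral processes. H2-K1 measured 6.60, 41.5 and 66.9 CPM in SN_input and 75.9, 281 and 726 CPM in PeMP_TRAP. B2m measured 120, 207 and 564 CPM in SN_input and 649, 1110 and 5410 CPM in PeMP_TRAP. Neither gene overlapped between the fractions, and 0.547% of all genes tested lay higher in this way. H2-D1 measured 11, 110 and 374 CPM and 293, 653 and 2455 CPM, overlapping only through SN_input replicate D, and it was higher in PeMP_TRAP in 8 of 8 replicates. The log2 fold change was 3.42 for H2-K1 (SE 0.61, edgeR adjusted p = 0.000124), 2.78 for B2m (SE 0.36, edgeR adjusted p = 1.05e-06) and 3.27 for H2-D1 (SE 0.55, edgeR adjusted p = 6.23e-05). In the first set alone the log2 fold change of H2-D1 was 3.68, with an edgeR adjusted p of 0.0607.

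Cd74 measured 0, 6.99 and 17.3 CPM in SN_input and 3.57, 84.3 and 415 CPM in PeMP_TRAP. It was higher in PeMP_TRAP in 7 of 8 replicates and lower in K, where it had 91 counts. Its log2 fold change was 5.04 (SE 0.87, edgeR adjusted p = 8.33e-05), and it was called in all 16 alternatives run. Thus 4 of the 10 genes were called higher in PeMP_TRAP than in SN_input, where 6.15% of all genes were called higher, 26.1% lower and 32.3% in either direction. The remaining calls, H2-Aa and Ciita, were lower, a share no larger than that of all genes called lower. Of 10 microglial markers 10 were called higher, at a median log2 fold change of 3.33. Called lower were 7 of 8 neuronal, 7 of 8 oligodendrocyte, 4 of 8 astrocyte and 5 of 9 endothelial and pericyte markers. Of the last list 1 was called higher. The part of these markers in the differences was not tested.

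H2-Aa had 0 reads in all 8 tamoxifen PeMP_TRAP libraries and reads in 5 of 8 SN_input libraries, up to 6.48 CPM in replicate K. It was called lower (edgeR adjusted p = 0.000837). Over both sets no fold can be given, because the SN_input mean of 2.20 CPM is under the floor of the shallowest PeMP_TRAP library. Within the second set, allowing for counting error only, H2-Aa was at least 22.7-fold lower in PeMP_TRAP than in SN_input. The mean was 3.34 CPM in SN_input against a highest floor of 0.147 CPM. In each of those PeMP_TRAP libraries 56.7% to 68.6% of the tested genes were at 0. Ciita also had 0 reads in all 8 PeMP_TRAP libraries, but in SN_input it had reads in replicate G alone, 12 counts. Its call as lower (edgeR adjusted p = 0.027) was lost with DESeq2 (adjusted p = 0.431) and in the second set alone (edgeR adjusted p = 0.0582). It was also lost with the replicate letter as a block (edgeR adjusted p = 0.105). Of all 15710 genes tested, 11% had no read in any of the 8 PeMP_TRAP libraries, against 0.98% in SN_input.

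H2-Ab1 and H2-Eb1 were found in few PeMP_TRAP libraries. H2-Ab1 had 8328 counts in replicate K, 609 in J, 5 in F and 0 in the other 5, while in SN_input it had reads in 7 of 8 with a highest level of 8.92 CPM. H2-Eb1 had 4 counts in replicate F and 0 in the other 7. Neither passed the test against SN_input, with edgeR adjusted p-values of 0.109 and 0.569. DESeq2 called H2-Ab1 higher (adjusted p = 0.0491), and edgeR called H2-Eb1 lower without replicate F (adjusted p = 0.00666) and in the second set alone (adjusted p = 0.008). Tap1 had 2856 counts in replicate D and 141 in E, and 0 in F and in all 5 libraries of the second set. Its edgeR adjusted p against SN_input was 0.148, and it was called higher by DESeq2 (adjusted p = 0.00865) and in the first set alone (edgeR adjusted p = 0.0187), but lower in the second set alone (edgeR adjusted p = 0.000881). Of all genes, DESeq2 called 39.6% in this comparison. In edgeR 2.87% were called in the first set alone, 43.6% in the second set alone and 33.9% without replicate F. Tap2 had reads in 4 of 8 PeMP_TRAP libraries, at 48.6 CPM in F and at most 8.54 CPM elsewhere (edgeR adjusted p = 0.75). The class I median log2 fold change was 3.27. For class II the fitted median was -1.73, or 0 with H2-Aa and Ciita at their bounds, against -0.75 for all genes tested.

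**Figure D2:**
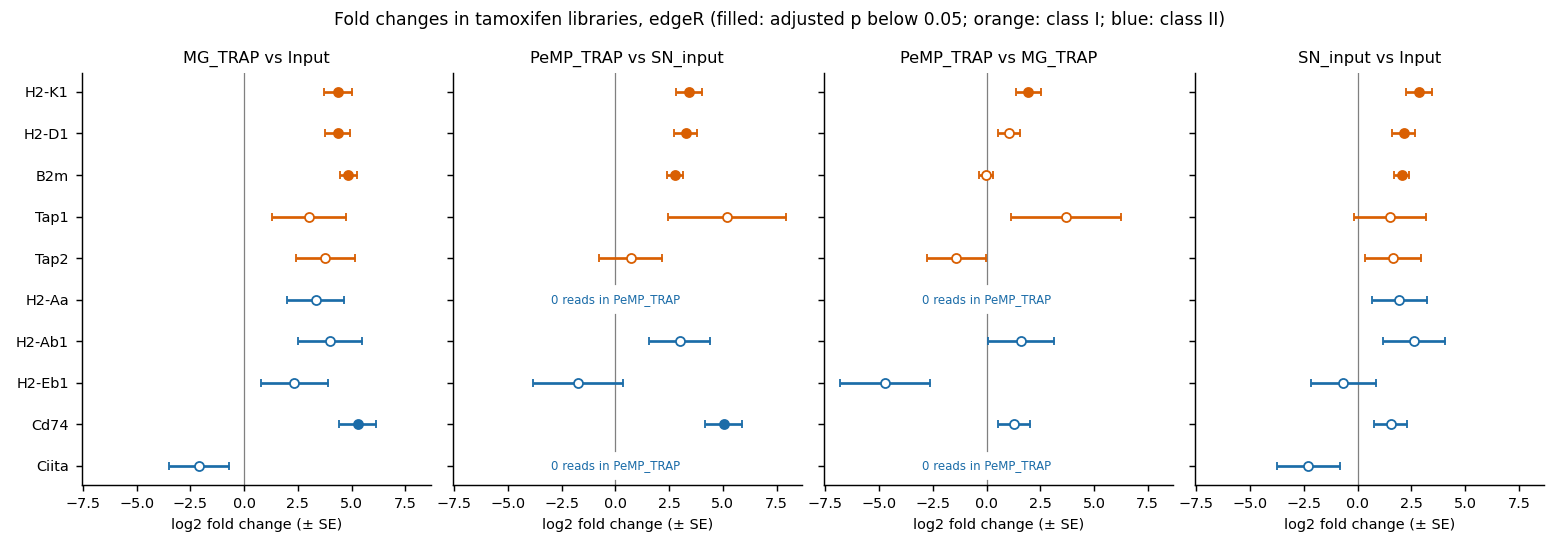
Log2 fold change with its SE (edgeR) of the 10 genes in 4 comparisons of tamoxifen libraries; filled points had an adjusted p below 0.05, orange is class I and blue is class II. H2-K1, H2-D1, B2m and Cd74 were filled in both TRAP comparisons with the matching input, and genes with 0 reads in PeMP_TRAP carry no fold.

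Both TRAP fractions were then set side by side. PeMP_TRAP against MG_TRAP gave H2-K1 as the 1 gene called higher, at a log2 fold change of 1.94 (SE 0.58, edgeR adjusted p = 0.0111), among 25.2% of all genes called in either direction, 3.17% higher and 22% lower. Its ranges overlapped, and it was higher in 6 of 8 replicates. The call was lost at a smaller log2 fold change of 1.28 with DESeq2's size factors in edgeR (adjusted p = 0.0848), 1.29 with DESeq2 itself (adjusted p = 0.055) and 1.04 with total counts (edgeR adjusted p = 0.194). In the first set alone it was lost at a log2 fold change of 1.82 (SE 1.03, edgeR adjusted p = 0.497), in a fit where 0% of all genes were called. B2m was lower in CPM in PeMP_TRAP than in MG_TRAP in 8 of 8 replicates, but its TMM-scaled log2 fold change was -0.02 (SE 0.33, edgeR adjusted p = 0.988). With total counts it was -0.85 (SE 0.32, edgeR adjusted p = 0.0393), and in the second set alone -0.58 (SE 0.23, edgeR adjusted p = 0.0498), where 42.6% of all genes were called. H2-D1 was higher in 4 and lower in 4 replicates (edgeR adjusted p = 0.135), and Cd74 was higher in 5 and lower in 3 (edgeR adjusted p = 0.221). Tap2 was lower in 7 of 8 replicates, at a log2 fold change of -1.40 (SE 1.35, edgeR adjusted p = 0.519). Tap1 was lower in 5 replicates and higher in 2, at a fitted log2 fold change of 3.68 (SE 2.56, edgeR adjusted p = 0.334), and it was called lower in the second set alone (edgeR adjusted p = 0.000404).

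H2-Aa was called lower in PeMP_TRAP than in MG_TRAP (edgeR adjusted p = 0.000503), at least 1.84-fold over both sets and at least 62.1-fold within the second set. These bounds, and that of H2-Eb1 below, allow for counting error only. H2-Eb1 was lower in 6 of the 6 replicates in which MG_TRAP had reads. Over both sets it did not pass with edgeR (adjusted p = 0.0963) but did with DESeq2 (adjusted p = 0.000312) and with edgeR without the filter (adjusted p = 0.0495). It also passed with the replicate letter as a block (edgeR adjusted p = 0.0335). It was called within the second set (edgeR adjusted p = 0.00188), where it was at least 74.4-fold lower, and without replicate D or F (edgeR adjusted p = 0.0461 and 0.00159). H2-Ab1 was lower in 6 and higher in 2 replicates, J and K (edgeR adjusted p = 0.51). Ciita had reads in MG_TRAP replicate G alone, and its call as lower (edgeR adjusted p = 0.0266) was lost with DESeq2 (adjusted p = 0.404). It was also lost with the replicate letter as a block (edgeR adjusted p = 0.123). H2-Aa and Ciita, the members called lower in the main fit, were no larger a share than the 22% of all genes called lower.

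The enrichment in TRAP over the matching input was also compared between synaptosome and homogenate within 1 model. It was smaller in the synaptosome for B2m by 2.07 on the log2 scale (log2 difference -2.07, SE 0.48, edgeR adjusted p = 0.00462) and for H2-Aa, whose size rests on PeMP_TRAP libraries without reads (edgeR adjusted p = 0.00144). Of all genes, 11.3% were called in this comparison and 10.9% had the smaller enrichment in the synaptosome. The differences for H2-K1 (-0.93, SE 0.79), H2-D1 (-1.08, SE 0.71) and Cd74 (-0.24, SE 1.02) did not pass, with edgeR adjusted p-values of 0.58, 0.414 and 0.96. Tap1, Tap2, H2-Ab1, H2-Eb1 and Ciita did not pass either, with edgeR adjusted p-values from 0.32 to 0.864. The median of all genes was -0.79. In the second set alone, where 29.5% of all genes were called, H2-D1 was called with a smaller enrichment (log2 difference -1.38, edgeR adjusted p = 0.0156), as were H2-Eb1 (edgeR adjusted p = 0.0083) and Tap1 (edgeR adjusted p = 0.000541). H2-Eb1 was also called without replicate F (edgeR adjusted p = 0.0078). In the first set alone the log2 difference of B2m was -1.72 (edgeR adjusted p = 0.852), in a fit where 0% of all genes were called. Of the 10 microglial markers 9 were called with a smaller enrichment in the synaptosome and 0 with a larger one, at a median log2 difference of -3.01, and their part in the B2m difference was not tested.

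Synaptosome RNA itself was compared with homogenate RNA. H2-K1, H2-D1 and B2m were called higher in SN_input, 3 of the 10 genes, where 2.55% of all genes were called in either direction, 2.08% higher and 0.465% lower. Their log2 fold changes were 2.86 (SE 0.60, edgeR adjusted p = 0.00279), 2.14 (SE 0.53, edgeR adjusted p = 0.0152) and 2.05 (SE 0.35, edgeR adjusted p = 0.000116). They were higher in 7, 7 and 6 of 8 replicates, and all 3 overlapped in range. Called higher with them were 9 of 10 microglial markers (median log2 fold change 3.22), 3 of 8 astrocyte, 3 of 8 oligodendrocyte and 2 of 10 border macrophage markers, whose part in these differences was not tested. None of the 3 passed with total counts, with edgeR adjusted p-values of 0.0677, 0.205 and 0.0566. H2-D1 was also lost with DESeq2's size factors (log2 fold change 1.42, edgeR adjusted p = 0.157) and with DESeq2 (adjusted p = 0.127). In the first set alone none passed, at log2 fold changes of 3.80, 3.32 and 2.08. The median log2 fold change of all genes was -0.02 with TMM and -1.07 with total counts. For Cd74 the log2 fold change was 1.53 (SE 0.75, edgeR adjusted p = 0.44). Tap1, Tap2, H2-Aa, H2-Ab1, H2-Eb1 and Ciita did not pass either, at log2 fold changes from -2.30 for Ciita to 2.63 for H2-Ab1 and edgeR adjusted p-values from 0.541 to 0.971. With only these 2 groups fitted, H2-Ab1 was called (log2 fold change 2.67, edgeR adjusted p = 0.0362), where 19% of all genes were.

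The measured shares of the class II genes differed between libraries. In MG_TRAP of tamoxifen mice, the level of Cd74 made up 62.8% to 91.4% of the class II sum in RPKM. Its share was 6.75% to 67.2% in Input and 13.3% to 86.3% in the 7 SN_input libraries with any class II read. In PeMP_TRAP, Cd74 made up 100% of class II in 5 of 8 libraries, 95.3% in J, 90.1% in F and 1.64% in K. The 5 libraries without a chain read (D, E, G, H and I) held 68 to 14391 counts of Cd74. Replicate K was the reverse, with 127 RPKM of H2-Ab1 and 2.13 RPKM of Cd74. Of the tested genes, 26.7% to 33.3% were at 0 in each tamoxifen PeMP_TRAP library of the first set. In the second set 56.7% to 68.6% were. The part of such zeros in these shares was not tested. Control PeMP_TRAP had no chain read at all, while Cd74 had 78, 0 and 865 counts in A, B and C. Between the heavy chains, H2-D1 held a median of 84.1% of the summed RPKM in MG_TRAP and 71.3% in PeMP_TRAP, with ranges of 70.9% to 93.1% and 46.1% to 93.5%. The border macrophage markers summed to 287 to 687 CPM in tamoxifen PeMP_TRAP, with Cd163, F13a1 and Clec10a at 0. There the dendritic cell markers summed to 0 to 267 CPM with 6 of 10 at 0. Against SN_input, 6 of the 7 tested B and plasma cell markers were called higher in PeMP_TRAP and 1 lower, 1 of 10 border macrophage markers higher and 3 lower, and 2 of 6 dendritic cell markers higher and 2 lower, beside 6.15% and 26.1% of all genes. Their part in these proportions was not tested.

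**Figure D3:**
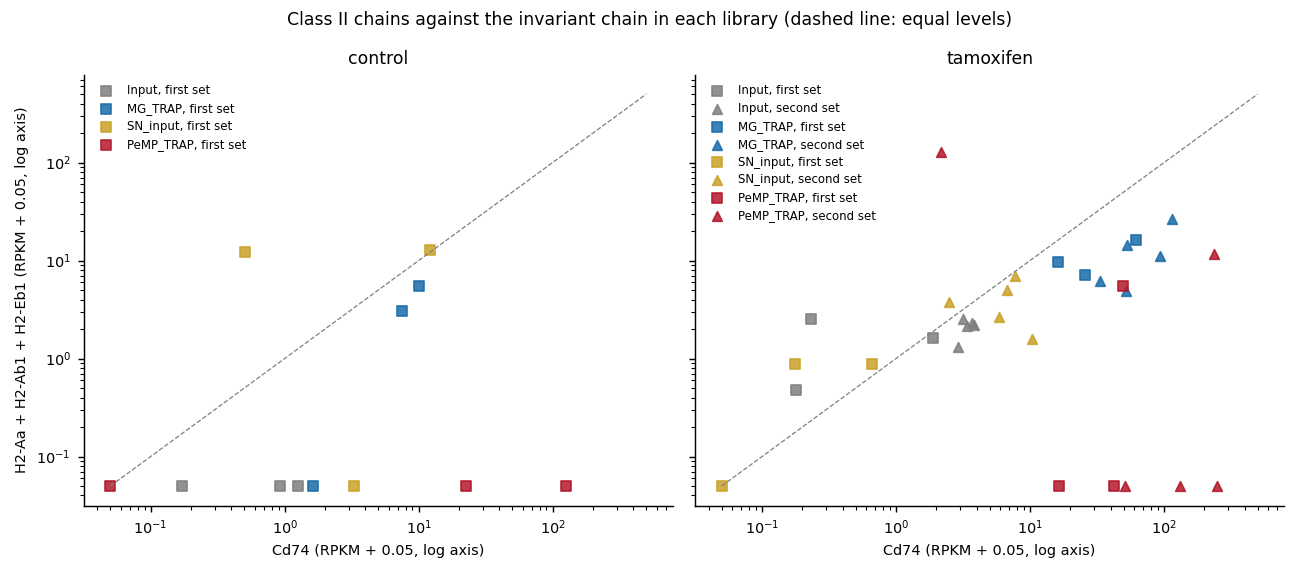
Summed level of the class II chains H2-Aa, H2-Ab1 and H2-Eb1 against Cd74 in each library, in RPKM plus 0.05 on log axes, for control (left) and tamoxifen (right) mice; squares are the first set and triangles the second set, and the dashed line marks equal levels. MG_TRAP libraries with tamoxifen lie below the line, 5 tamoxifen PeMP_TRAP libraries lie on the lower edge without a chain read, and replicate K of PeMP_TRAP lies above the line.

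The pull-down was also made from control mice. Their microglial markers summed to 907 to 4565 CPM in MG_TRAP and 109 to 225 CPM in Input, with a median log2 fold change of 4.06 and 0 of 10 called by edgeR. In control MG_TRAP, H2-K1 measured 47.5, 3.95 and 37.0 CPM in A, B and C, and H2-D1 measured 206, 41.5 and 239 CPM. B2m measured 245, 525 and 767 CPM there, and Cd74 measured 12.6, 2.63 and 16.8 CPM. In control Input, H2-K1 measured 0.302, 0.553 and 14.3 CPM, H2-D1 24.5, 6.27 and 16.1 CPM, B2m 252, 231 and 334 CPM, and Cd74 0.201, 1.47 and 2.04 CPM. All 3 control MG_TRAP libraries thus lay above all 3 Input libraries for H2-D1 and Cd74, as for 6.25% of all genes tested, while H2-K1 and B2m overlapped. In the main fit with control libraries Ciita did not pass the filter on low counts, which leaves 9 of the 10 genes tested there. None of the 9 passed the edgeR test of control MG_TRAP against Input (adjusted p from 0.589 to 1), in which edgeR called 0.0135% of 14771 genes, with 1101 at an unadjusted p below 0.05. Nor did any in control PeMP_TRAP against SN_input (adjusted p from 0.23 to 0.708), in which edgeR called 0 genes and 2577 had an unadjusted p below 0.05. DESeq2 called 223 and 1159 genes in these comparisons. With DESeq2, Cd74 was called higher in that comparison (log2 fold change 4.13, SE 1.37, adjusted p = 0.0386).

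Tamoxifen was set against control within the first set. In MG_TRAP, replicates D, E and F had 5663, 4847 and 5179 CPM of B2m, 344, 109 and 177 CPM of H2-K1, 1474, 365 and 378 CPM of H2-D1, and 103, 27.0 and 43.3 CPM of Cd74. Each of the 4 genes lay above all control MG_TRAP libraries, as did 10.3% of all genes tested. The log2 fold change was 3.76 for B2m (SE 0.83, edgeR adjusted p = 0.0635), 3.13 for H2-K1 (SE 1.28, edgeR adjusted p = 0.251), 2.46 for H2-D1 (SE 1.22, edgeR adjusted p = 0.314) and 2.73 for Cd74 (SE 1.63, edgeR adjusted p = 0.41). Tap1, Tap2, H2-Aa, H2-Ab1 and H2-Eb1 had edgeR adjusted p-values from 0.251 to 0.777. None passed, and edgeR called 0 of 14771 genes in this comparison, with 2351 at an unadjusted p below 0.05 and 819 called by DESeq2. B2m was called by DESeq2 (adjusted p = 2.87e-06) and in edgeR with DESeq2's size factors (adjusted p = 0.0421) or without the filter (adjusted p = 0.0202). Median log2 fold changes of markers were 2.89 for microglia and 5.49 for border macrophages. They were -4.00 for astrocytes, -3.66 for endothelium and pericytes, -2.46 for oligodendrocytes and -2.20 for neurons. The part of these markers in the differences was not tested.

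In PeMP_TRAP, B2m measured 342, 510 and 1063 CPM in control and 5410, 1517 and 2754 CPM in tamoxifen libraries, without overlap, as for 10.3% of all genes tested. Its log2 fold change was 2.57 (SE 0.79, edgeR adjusted p = 0.0314), which made it 1 of 9 tested genes called where 11.1% of all genes were called, 5.56% higher and 5.56% lower. The call was lost when only these 2 groups were fitted (log2 fold change 2.71, edgeR adjusted p = 0.328) and without replicate A, B, D or F (edgeR adjusted p = 0.0701, 0.056, 0.137 and 0.0578), at log2 fold changes of 2.55, 2.90, 1.79 and 2.88. H2-D1 ranged from 2.46 to 870 CPM in control PeMP_TRAP, the highest being replicate A, so that the groups overlapped (edgeR adjusted p = 0.124). Without replicate A it was called higher (edgeR adjusted p = 0.00694). Cd74 overlapped as well, with 38.1, 0 and 213 CPM in control and 70.6, 27.3 and 82.4 CPM in tamoxifen libraries. H2-Aa had no read in either group, and H2-K1, Tap1, Tap2, H2-Ab1, H2-Eb1 and Cd74 had edgeR adjusted p-values from 0.209 to 0.936.

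Markers of several cell types differed between the same PeMP_TRAP libraries. Of the 10 microglial markers 5 were called higher and 0 lower, at a median log2 fold change of 3.49. They summed to 568 to 3908 CPM in control and to 7259 to 16732 CPM in tamoxifen PeMP_TRAP of the first set. Of 5 B and plasma cell markers tested, 3 were called higher. Endothelial and pericyte markers summed to 1269 to 2792 CPM in control and to 14.1 to 358 CPM in tamoxifen libraries of the first set, with 5 of the 8 tested called lower. Of 8 markers each, 3 neuronal, 3 oligodendrocyte and 2 astrocyte markers were called lower. These counts stand beside 5.56% of all genes in each direction, and the part of these markers in the B2m difference was not tested.

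In total RNA edgeR called none of the 9 genes tested with tamoxifen. In Input, B2m measured 106, 133 and 211 CPM with tamoxifen, all below the control values, as for 2.41% of all genes tested, with an edgeR adjusted p of 1. The class II chains had 0 reads in all 3 control Input libraries. In tamoxifen Input of the first set, H2-Aa had reads in D, H2-Ab1 in D and E, and H2-Eb1 in F. In SN_input, H2-Ab1 measured 0, 18.9 and 17.3 CPM in control and 0, 0.647 and 2.12 CPM with tamoxifen, and its edgeR adjusted p was 1. edgeR called 0 genes in either input, with 452 in Input and 495 in SN_input at an unadjusted p below 0.05. DESeq2 called 48 and 64 genes there. The difference in enrichment between tamoxifen and control mice was called in the main edgeR fit for none of the 9 genes tested. For B2m in MG_TRAP the log2 difference was 4.51 (SE 1.10, edgeR adjusted p = 0.23, DESeq2 adjusted p = 0.000465). With the replicate letter as a block B2m was called there (4.60, edgeR adjusted p = 0.0154). In PeMP_TRAP the B2m log2 difference was 2.31 in the main fit (SE 1.06, edgeR adjusted p = 0.216). The edgeR adjusted p-values of the other genes tested were at least 0.572 and 0.245. All genes called there came to 0% and 1.24%, the latter with 0.914% higher and 0.325% lower, and 1357 and 2928 genes had an unadjusted p below 0.05, with 203 and 1767 called by DESeq2.

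The sets differed in level for some genes. B2m in tamoxifen MG_TRAP was 4847 to 5663 CPM in the first set and 1266 to 2457 CPM in the second, without overlap, and in PeMP_TRAP it was 1517 to 5410 and 649 to 1244 CPM. Of all 15710 genes, 6.25% and 9.46% lay higher in the first set without overlap in these fractions. Cd74 in Input was 0.218 to 3.06 CPM in the first set and 4.79 to 6.28 CPM in the second, where 23.6% of all genes lay lower in the first set without overlap. These level differences were not tested. Of the 10 genes, Tap1 alone differed between the sets in a fraction comparison by the interaction test (edgeR adjusted p = 0.000676 for PeMP_TRAP against SN_input). Of all 17961 genes tested, 15.1% differed between the sets there, so 1 of 10 is near the background. In the second set, allowing for counting error only, Tap1 was at least 20.1-fold lower in PeMP_TRAP than in SN_input, which was at 2.97 CPM on average. In the first set, by contrast, PeMP_TRAP held 226.7, 56.7 and 0 CPM and SN_input at most 0.212 CPM.

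Other genes of each route were followed in lists, of which 17 of 21 class I and 20 of 22 class II genes passed the filter on low counts. In MG_TRAP against Input, 6 class I route genes were called higher and 0 lower, beside 4.67% and 2.15% of all genes. Psmb9 and Psmb8, catalytic subunits of the immunoproteasome, which cuts peptides for class I, had log2 fold changes of 6.85 (SE 1.16) and 6.63 (SE 0.71). Tapbp, the tapasin bridge between transporter and heavy chain, was at 3.53 (SE 0.68), and the proteasome activator Psme2 at 2.98 (SE 0.54). Exons of Psmb9 overlap those of Tap1, and the strand setting that decides how reads of the overlap were counted is not given. The edgeR adjusted p-values were 6.39e-05, 4.52e-09, 0.000386 and 0.000154. For class II, 11 genes were called higher and 0 lower. They included Ctss, the protease that trims the invariant chain, at 6.91 (SE 0.39, edgeR adjusted p = 2.01e-16), with 26.0 to 108 CPM in Input and 2712 to 8118 CPM in MG_TRAP. H2-DMb1, of the peptide exchanger DM, was at 7.03 (SE 1.55, edgeR adjusted p = 0.00219). H2-Ob and H2-Oa, which form its inhibitor DO, were at 7.22 (SE 2.08) and 6.37 (SE 1.65), with edgeR adjusted p-values of 0.0226 and 0.00933.

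In PeMP_TRAP against SN_input, 8 class I route genes were called higher and 0 lower. The largest were Psmb9 (log2 fold change 5.35, SE 1.10), the nonclassical heavy chain H2-M3 (5.13, SE 1.72), Psmb8 (3.20, SE 0.60) and Psme2 (2.97, SE 0.54), at edgeR adjusted p-values of 0.000445, 0.0193, 0.000186 and 0.000137. Of the 20 class II route genes, 9 were called higher and 5 lower, beside 6.15% and 26.1% of all genes, so that the share called lower was near the background. H2-DMb1 was higher (5.41, SE 1.5, edgeR adjusted p = 0.00512), with reads in 5 of 8 PeMP_TRAP libraries. The lower genes were Rfx5, March1, Nfyb and, named after their values were seen, Nfyc and Cd80. Rfx5, a subunit of the factor that binds class II promoters, had 0 reads in all 8 PeMP_TRAP libraries. March1, a ligase that removes class II from the surface, had reads in 2 of 8 and no more than 3 counts. Nfyb, a subunit of the Y box factor, was at 2.12 to 48.7 CPM in SN_input and at 0 to 4.05 CPM in PeMP_TRAP. Their edgeR adjusted p-values were 0.00133, 0.002 and 0.000771.

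Against MG_TRAP, PeMP_TRAP had Psme2 as the 1 class I route gene called, higher by 1.53 (SE 0.51, edgeR adjusted p = 0.022). That is 1 of 17 genes, beside 3.17% of all genes called higher. For class II, 0 of 20 genes were higher and 5 lower, a share near the 22% of all genes called lower, among them Rfx5, March1, Nfyb and the costimulator Cd80, which had reads in 7 of 8 MG_TRAP libraries and in 1 of 8 PeMP_TRAP libraries (edgeR adjusted p = 0.00475). In SN_input against Input, where 2.08% of all genes were called higher, Psmb8 was called for class I (4.13, SE 0.63, edgeR adjusted p = 2.66e-05), and Ctss (3.96, SE 0.34) and the protease Lgmn (1.79, SE 0.40) for class II, at edgeR adjusted p-values of 8.37e-11 and 0.00619. The TRAP enrichment was smaller in the synaptosome for Psmb8 (log2 difference -3.43, SE 0.81, edgeR adjusted p = 0.00529) and for 6 class II route genes, among them Cd80, Rfx5, March1 and Nfyb (log2 difference -6.08, SE 1.62, edgeR adjusted p = 0.0116), 1 of 17 and 6 of 20 genes beside 10.9% of all genes. List medians stood at 2.48 and 3.30 for MG_TRAP against Input and at 1.60 and 2.65 for PeMP_TRAP against SN_input, for class I and class II, beside -0.14 and -0.75 for all genes.

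With tamoxifen against control in PeMP_TRAP, 2 class I route genes were called higher, and 6 class II route genes were higher and 1 lower, beside 5.56% of all genes in each direction. Most had no usable control level. H2-M3 and Tapbpl, a tapasin relative, had at most 0.246 CPM in control PeMP_TRAP, and Cd83, H2-DMb2 and Nfya had 0 reads in all 3 control libraries, and H2-DMb1 at most 0.885 CPM. Nfyb, named after its values were seen, was the lower one, with 0.488 to 321 CPM in control PeMP_TRAP (edgeR adjusted p = 0.0256). Ctss, also named after its values were seen, did have a control level, with 270 to 1470 CPM in control PeMP_TRAP, and its log2 fold change was 3.36 (SE 0.81, edgeR adjusted p = 0.0102). In MG_TRAP, Input and SN_input edgeR called no gene of either list with tamoxifen, as it called 0 of all genes there.

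**Figure D4:**
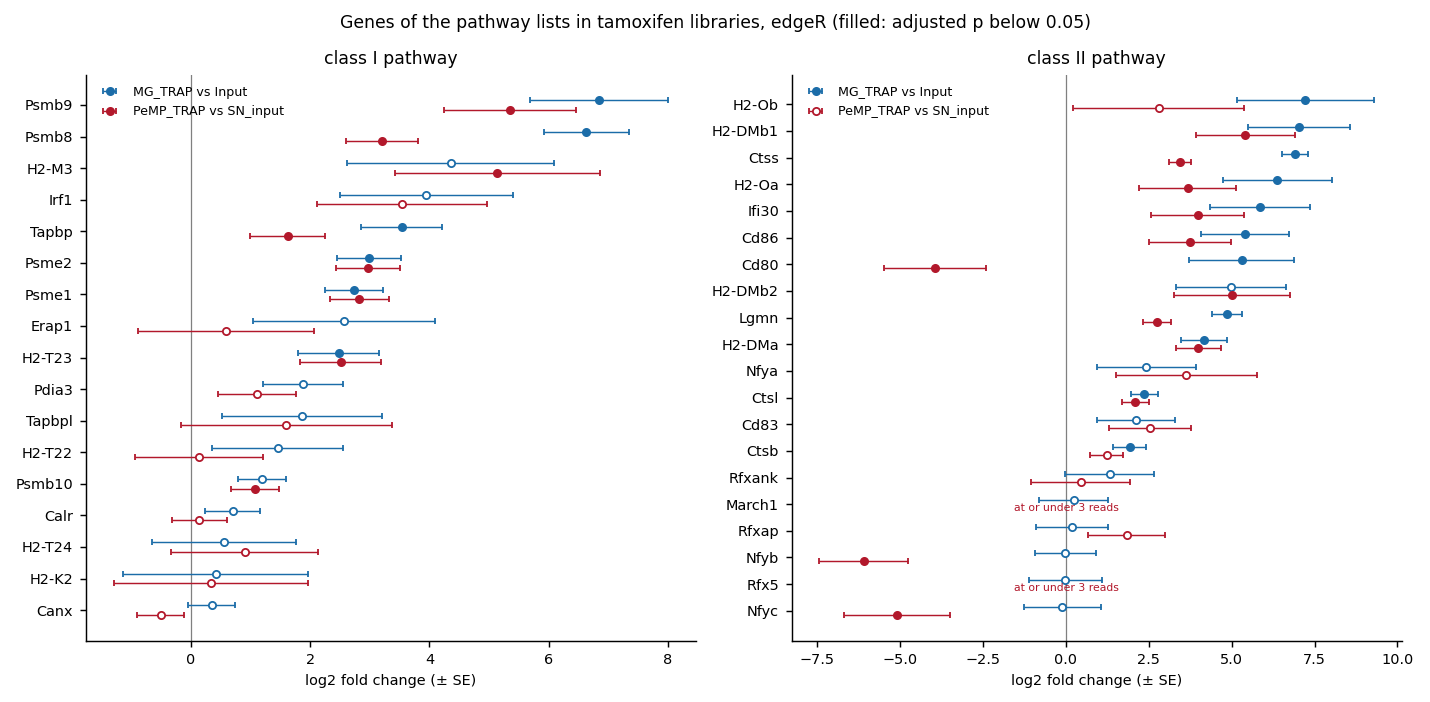
Log2 fold change with its SE (edgeR) of the tested genes of the class I (left) and class II (right) routes in tamoxifen libraries, blue for MG_TRAP against Input and red for PeMP_TRAP against SN_input; filled points had an adjusted p below 0.05, and Rfx5 and March1 carry no PeMP_TRAP fold. The red points of Nfyb, Nfyc and Cd80 lie below 0, whereas H2-DMa, H2-DMb1, Ctss and Lgmn lie above 0 in both comparisons.

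Across the 44 libraries, the genes whose log2 CPM followed H2-K1 most closely among 9977 genes were Adam15 (Pearson r = 0.88), Cyth4 (0.88), Psme2b (0.87), Aup1 (0.86) and Msn (0.86). For Cd74 they were Entpd1 (0.88), Fcgrt (0.88), Psme2 (0.86), Prr13 (0.85) and Arpc1b (0.82). Among the members, H2-K1 followed H2-D1 at 0.78, Cd74 at 0.73 and B2m at 0.70. Cd74 followed its partner chains less closely, at 0.17 for H2-Aa, 0.19 for H2-Ab1 and 0.09 for H2-Eb1. Those chains had reads in 19, 29 and 19 of the 44 libraries, against 42 for Cd74. The part of the zero counts in these correlations was not tested. All correlations describe 44 libraries that share fractions, sets and depth.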

How the data were processed

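The authors deposited 1 table of HTSeq counts per library, whole-number read counts per Ensembl gene, not normalized. The submitters' processing notes name FastQC 0.11.7, Trimmomatic 0.38, Bowtie2 2.3.5, STAR 2.7.0d and HTSeq 0.9.1, and per the labels libraries were made with SMART-Seq v4 and NEBNext Ultra II. The genome build, annotation and strand setting are not given in the sources used here. Tables held 54146 identifiers in the first set and 55359 in the second. The 50714 shared ones were used, which left out 0.0232% to 0.795% of assigned reads per library, and rows that name no gene were left out of totals. CPM is the count scaled to the library's total over the shared genes, and RPKM divides CPM by the union exon length in kilobases.

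Counts were tested with edgeR 4.0.16 in R 4.3.3 (TMM scaling, quasi-likelihood test, filterByExpr with a minimum count of 10, Benjamini-Hochberg threshold 0.05). A prior count of 2 was used only for the log2 CPM behind the correlations. Comparisons between fractions used the 32 tamoxifen libraries with the set as covariate (15710 genes), and those with controls used the 24 first-set libraries (14771 genes). The SE given for edgeR is the absolute log2 fold change divided by the square root of the test's F statistic. The code was tested on simulated data. Alternatives were DESeq2 1.42.0, DESeq2's size factors in edgeR, total counts, no filter, only the groups compared, each set alone, a replicate block and leaving out each replicate. No 2 libraries held identical counts. The naming rule took all 10 members in every comparison, those that did not pass partly as a range, and of each pathway list at most 4 called genes per comparison, by size of log2 fold change; any other is marked as named after its values were seen. The members and lists were chosen with earlier results of these data known. Precision is limited by the number of libraries and, for low genes, by the floor of 3 counts. One marker gene is not reported here.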

Additional observations from a re-analysis of the deposited data

Results flagged for a closer look

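In 38 groups of 8 tamoxifen libraries, the highest or lowest library was compared with the rest of its group, and in 15 it lay far from the others, where chance gives about 1 in 20 for normally spread values. These groups are skewed and pool both sets, and with 7 libraries at 0 the remaining library stands apart by construction. For class I, replicate D was high for H2-K1 in MG_TRAP (344 CPM, next 184), for H2-D1 in SN_input (374, next 161), for B2m in SN_input (564, next 260) and for B2m in PeMP_TRAP (5410, next 2750). Replicate F was high for B2m in Input (211 CPM, next 133) and for Tap2 in PeMP_TRAP (48.6, next 8.54). Tap1 was high in SN_input of replicate I (8.91 CPM, next 3.49) and in PeMP_TRAP of replicate D (227, next 56.7).

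For class II, H2-Ab1 reached 327 CPM in PeMP_TRAP of replicate K (next 29.9). H2-Eb1 reached 37.0 CPM in MG_TRAP of replicate K (next 13), 3.47 in SN_input of J (next 0.96) and 5.4 in PeMP_TRAP of F (next 0). Ciita reached 2.88 CPM in Input of H (next 1.10), 2.03 in MG_TRAP of G and 1.02 in SN_input of G, with 0 in the other 7 libraries of both.

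Tap1 differed between the sets, second minus first, by a fitted log2 difference of -18.7 for PeMP_TRAP against SN_input (edgeR adjusted p = 0.000676), -17.3 for PeMP_TRAP against MG_TRAP (edgeR adjusted p = 0.000818) and -20.8 for the difference in enrichment (edgeR adjusted p = 0.00195). These sizes rest on libraries without reads and are no measure of the change. The enrichment differed between synaptosome and homogenate for B2m, by -2.068 (edgeR adjusted p = 0.00462), and for H2-Aa, by a fitted -11.91 that rests on libraries without reads (edgeR adjusted p = 0.00144).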

How the results depend on the processing

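The calls of H2-K1, H2-D1 and B2m in MG_TRAP against Input, and of H2-K1, B2m and Cd74 in PeMP_TRAP against SN_input, held in all 16 alternatives run. H2-Aa stayed called lower in PeMP_TRAP in the 15 run against each of SN_input and MG_TRAP. The number of the 10 genes called moved from 4 to 7 in MG_TRAP against Input with only the groups compared, and from 3 to 0 in SN_input against Input with total counts (2.06% of all genes called) and in the first set alone (0.0463%). In PeMP_TRAP against MG_TRAP it was 3, and 0 in the first and 6 in the second set alone, where 0% and 42.6% of all genes were called. For the enrichment in synaptosome against homogenate it was 2, and 0 and 5, beside 0% and 29.5% of all genes. For MG_TRAP with tamoxifen against control it moved from 0 to 1 with DESeq2's size factors, without the filter and with DESeq2 (0.115%, 0.187% and 5.54% of all genes called). For PeMP_TRAP with tamoxifen against control it moved from 1 to 2 without the filter (6.46%) and to 0 with only the groups compared (0.353%). In control PeMP_TRAP against SN_input, and in the MG_TRAP enrichment of tamoxifen against control, DESeq2 called 1 where edgeR called 0 (7.85% and 1.37% of all genes with DESeq2). Leaving out a replicate gave 4 to 4 calls in MG_TRAP against Input (5.47% to 7.19% of all genes called), 5 to 7 in PeMP_TRAP against SN_input (27.8% to 36.1%), 2 to 4 in PeMP_TRAP against MG_TRAP (19.6% to 30.9%), 3 to 3 in SN_input against Input (1.28% to 3.16%) and 2 to 3 for the enrichment (6.63% to 16.1%). For PeMP_TRAP with tamoxifen against control it gave 0 to 1 (2.28% to 8.67%), the 0 without B, D or F. In the second set alone Tap1 turned negative, with fitted log2 values of -9.26 against SN_input, -10.8 against MG_TRAP and -12.69 for the enrichment (edgeR adjusted p = 0.000881, 0.000404 and 0.000541). Where fewer samples or zeros do not account for a change by construction, the cause was not tested. The difference in enrichment between synaptosome and homogenate uses all 4 tamoxifen groups, so it has no separate fit with only the groups compared.

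With total counts the share of called genes that were higher changed, from 327 higher and 73 lower to 93 and 230 in SN_input against Input. In MG_TRAP against Input, 733 higher and 338 lower became 594 and 528 with DESeq2's size factors.

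The labels do not say that a letter pairs libraries, and not every same-letter correlation of deviations passed 0.1, so letters were not used as pairs in the tests; counts of replicates in which a gene was higher or lower describe libraries of the same letter. Under tamoxifen 5 of 8 passed for MG_TRAP with Input, 3 for PeMP_TRAP with MG_TRAP, 4 for SN_input with Input and 0 for PeMP_TRAP with SN_input. A library correlated best with its own letter in 6, 6, 6 and 3 of 8, a hint of pairing from the data. With the replicate block, 1 of the 9 genes tested, B2m, was called for the MG_TRAP enrichment of tamoxifen against control (4.60, edgeR adjusted p = 0.0154), where 0.0474% of all genes were called. Ciita was no longer called in PeMP_TRAP (edgeR adjusted p = 0.105 and 0.123), but was called lower in MG_TRAP and SN_input against Input (edgeR adjusted p = 0.013 and 0.046), and H2-Eb1 was called lower against MG_TRAP (edgeR adjusted p = 0.0335). By counting error alone, a count of 0 allows up to 4.05 CPM in the shallowest PeMP_TRAP library and at most 0.147 CPM in those of the second set.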
